A study of Mus with 6 samples.

Results

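The potassium channel genes measured here were the genes whose symbol starts with Kcn followed by a letter code and, in most, a number, with Kcnj13 left out. The rule took 89 of the 19505 genes with a named probe set on the arrays, each read by 1 probe set. It used names only and no measured value. By subfamily they were 61 pore-forming subunits, 16 auxiliary subunits (Kvβ, KChIP, KCNE and BKβ), 10 modulatory Kv subunits and 2 genes that encode no channel protein, the regulator Kcnrg and the long non-coding RNA Kcnq1ot1.

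RNA came from the brains of outbred ICR mice and was hybridised to 6 one-colour Affymetrix arrays. The CK group received the ginsenoside metabolite compound K by gavage at 40 mg/kg together with SCOP, named in the labels as scopoletin hydrobromide, by intraperitoneal injection at 2 mg/kg. The SCOP group, called the model group in the labels, received SCOP at 2 mg/kg without CK, and the Control group received 0.9% saline. There were 2 arrays a group. Dosing ran for 14 days and SCOP was injected from day 7. All mice had been through behavioural tests, among them a step-down test with electric shocks, before the brain was removed. The labels call the arrays biological replicates, and the sources used here state neither age nor sex, nor if an array holds 1 mouse or pooled mice.

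Potassium channels let potassium leave the cell and so set the resting potential, the shape of the action potential and the firing rate. Voltage-gated (Kv) channels open on depolarisation and are built from pore subunits with auxiliary subunits. Inward rectifiers (Kir) and 2-pore-domain (K2P) channels work near rest, and calcium- or sodium-activated channels follow the ions that enter during firing. In brain, Kv7 channels carry the M-current, which muscarinic acetylcholine receptors close, and Kir3 channels are opened by G proteins below many inhibitory receptors.

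The deposited values are log2 levels, so a difference of 1 is a doubling. They do not rank one gene against another, because probe sets differ in brightness. A gene was called above background on an array where it was brighter than 95% of that array's negative controls, a level between 4.98 and 5.55. SCOP replicate 2 had the highest of these background levels. It also correlated with the other arrays at 0.965 to 0.969 across all genes, where the other 5 arrays correlated with each other at 0.990 to 0.993. Its interquartile range over genes was 3.19 and that of the others 3.57 to 3.70. The counts and medians that use the SCOP group, and the changes that rest on it, are therefore also given without this array. The labelled tissue fitted its markers: all 6 neuron markers (Rbfox3, Snap25, Syt1, Stmn2, Nefl and Tubb3) and all 6 astrocyte markers passed background, and the neuron markers averaged 9.81 to 9.84 on the other 5 arrays.

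Of the 89 genes, 58 passed background on at least 1 array, 37 of them on all 6 arrays and 21 on some. The remaining 31 (34.8%) did not pass it on any array. Over all genes the share that did not pass was 48.5%. The 58 genes covered every Kv pore subfamily, Kvβ, KChIP, Kir, K2P, SK, Slo2 and BKβ. All 5 KCNE subunits, small partners best known from heart and epithelia, were below background on every array, as were Kcnu1, the sperm channel Slo3, Kcnn4, the intermediate-conductance channel of blood and epithelial cells, and Kcnq1, the Kv7 pore of heart and ear. Below background on every array were also 6 of 14 Kir genes, 4 of 14 K2P genes, 3 of 8 Kv1 genes, 4 of 10 modulatory subunits and 3 of 8 Kv10 to Kv12 genes. The values of these 31 genes say little about level. Kcnu1 read 3.19 to 4.26 over the 6 arrays, Kcnrg 2.58 to 3.23 and Kcnq1ot1 3.75 to 4.72, all under the lowest background level.

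No potassium channel gene passed the test in any comparison. At an adjusted p under 0.05 limma called 0 of 89 genes in CK against SCOP, in SCOP against Control and in CK against Control, and 0% of all 19505 genes in each. The smallest adjusted p of a member was 0.89, 0.864 and 1.0 in that order. The t-test named in the methods, after the same adjustment, also called 0 members in each. With 2 arrays against 2, a two-sided exact permutation test of a single gene has 0.333 as its smallest possible p. The arrays of the 2 groups overlapped for 64 of 89 members in CK against SCOP, 66 in SCOP against Control and 60 in CK against Control. Groups without overlap were thus common among the members, and overlap was not counted over all genes. The 95% confidence intervals of the log2 changes had half-widths of 0.438 to 1.11, with a median of 0.581, so differences of about this size were not resolved for most genes.

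In CK against SCOP, limma gave an unadjusted p under 0.05 to 0 members in the higher direction, where 1.14% of all genes passed, and to 1 in the lower direction, where 1.43% passed. This was Kcnj2, an inward rectifier of vessels and neurons. Kcnj2 read 3.89 and 3.65 on the CK arrays and 4.18 and 4.56 on the SCOP arrays, a log2 change of -0.60 (SE 0.22, unadjusted p = 0.027, adjusted p = 0.89, limma). It was below background on all 6 arrays. Without SCOP replicate 2 the change was -0.41 and the p 0.071. In that setting 1 member passed in the higher direction (1.93% of all genes) and 1 in the lower (1.83%), Kcna10 and Kcnu1, both below background on every array.

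In SCOP against Control, 0 members had an unadjusted p under 0.05 in either direction in limma, beside 2.25% of all genes higher and 1.06% lower. Without SCOP replicate 2 the count was 7. In the higher direction these were Kcnd1 (0.54), Kcne4 (0.71), Kcng4 (0.83) and Kcnu1 (0.69), beside 2.92% of all genes. In the lower direction they were Kcna10 (-0.56), Kcnj15 (-0.46) and Kcnmb2 (-0.57), beside 1.83% of all genes. The adjusted p of each was 0.98 in limma, and of the 7 genes Kcnd1 and Kcng4 passed background on some arrays and the others on none. With SCOP replicate 1 as the lone SCOP array, these values compare that array with the Control arrays. In CK against Control, 1 member passed in the higher direction, where 0.969% of all genes did, and 0 in the lower, where 0.467% did. This was Kcne2, a KCNE subunit known from choroid plexus and stomach. Kcne2 read 3.87 and 4.10 on the CK arrays and 3.39 and 3.42 on the Control arrays, a change of 0.58 (SE 0.20, unadjusted p = 0.019, adjusted p = 1.0, limma). Both SCOP arrays, at 3.76 and 3.81, lay between the CK and the Control arrays. All 6 values were below background. The 6 choroid plexus markers, of which Aqp1 was below background on every array, averaged 6.40 and 6.50 on the CK arrays and 6.06 and 6.53 on the Control arrays, and their part in the Kcne2 values was not tested.

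Over all 89 genes the median log2 change was 0.13 in CK against SCOP (all genes 0.017), -0.11 in SCOP against Control (all genes 0.0004) and 0.029 in CK against Control (all genes 0.014). Among the 58 genes above background the medians were 0.25, -0.23 and 0.027, beside 0.10, -0.096 and 0.0031 over the 10039 genes of the series that passed background. When SCOP replicate 2 was left out, the first and second of these medians turned sign, to -0.062 in CK against SCOP (all genes above background -0.0076) and 0.064 in SCOP against Control (0.0089). The first and second of these comparisons share the SCOP arrays, so their opposite signs are not 2 separate observations. Without SCOP replicate 2 the medians over 89 genes were 0.015 in CK against SCOP and 0.062 in SCOP against Control. Without SCOP replicate 1, which leaves SCOP replicate 2 as the only SCOP array, they were 0.35 and -0.27. In that setting limma called 23 of 89 members in CK against SCOP and 24 in SCOP against Control at an adjusted p under 0.05, beside 16.6% and 16.1% of all genes, with the lone array assumed to vary like the others.

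**Figure D1:**
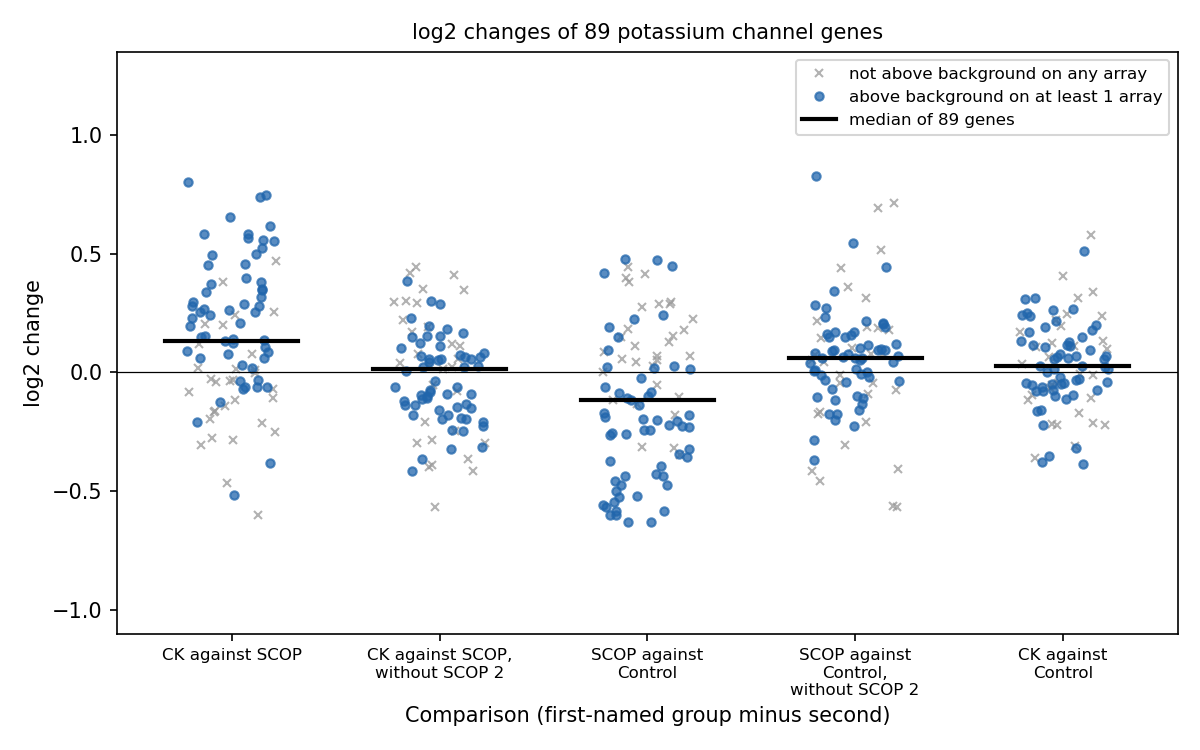
The log2 changes of the 89 genes (vertical axis) in the 3 comparisons and, for the comparisons that use SCOP, without SCOP replicate 2 (horizontal axis). Circles are the 58 genes above background on at least 1 array, crosses the 31 that were not, and bars the medians of all 89 genes, which were 0.13 and -0.11 with that array and 0.015 and 0.062 without it.

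CK against Control uses neither SCOP array for its means. Counts by size of change were made for members only, not over all genes, so they do not set these genes apart from the series. The median change in that comparison was 0.0031 over all genes above background and 0.027 over the members above background. Of these 58 members, 48 differed by less than 0.25 on the log2 scale, and 1 differed by more than 0.5. This was Kcng4, a modulatory Kv subunit, with 4.79 and 5.16 on the CK arrays and 4.59 and 4.34 on the Control arrays, a change of 0.51 (SE 0.30, unadjusted p = 0.13, limma). Only 2 of its 6 arrays passed background. When the CK and Control arrays were fitted without the SCOP arrays, limma gave an unadjusted p under 0.05 to 3 members, Kcne2 and Kcng4 higher (3.26% of all genes) and Kcnj4 lower (1.93%), with adjusted p = 0.93 for each.

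Among the 6 arrays, SCOP replicate 2 differed most from the others in the potassium channel genes. It held the lowest of the 6 values for 43 of the 58 genes above background (74.1%). Over the 10039 genes of the series that passed background this share was 51.3%. It held the highest value for 7 of the 58 genes (12.1%, all genes 24.8%). After quantile normalization, which gives every array the same distribution and was added after the values were seen, it was lowest for 38 of the 58 genes, beside 40.5% of all genes above background. The median distance of SCOP replicate 2 from the mean of the other 5 arrays was -0.48 over the 58 genes, and the other 5 arrays spanned a median of 0.33. SCOP replicate 1 behaved like the remaining arrays: it lay within the range of the CK and Control arrays for 40 of the 58 genes (69.0%, all genes above background 60.0%). It lay below that range for 6 (10.3%, all genes above background 18.4%) and above it for 12 (20.7%, all genes above background 21.6%). These are descriptions of 1 array, and no test was made of them.

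**Figure D2:**
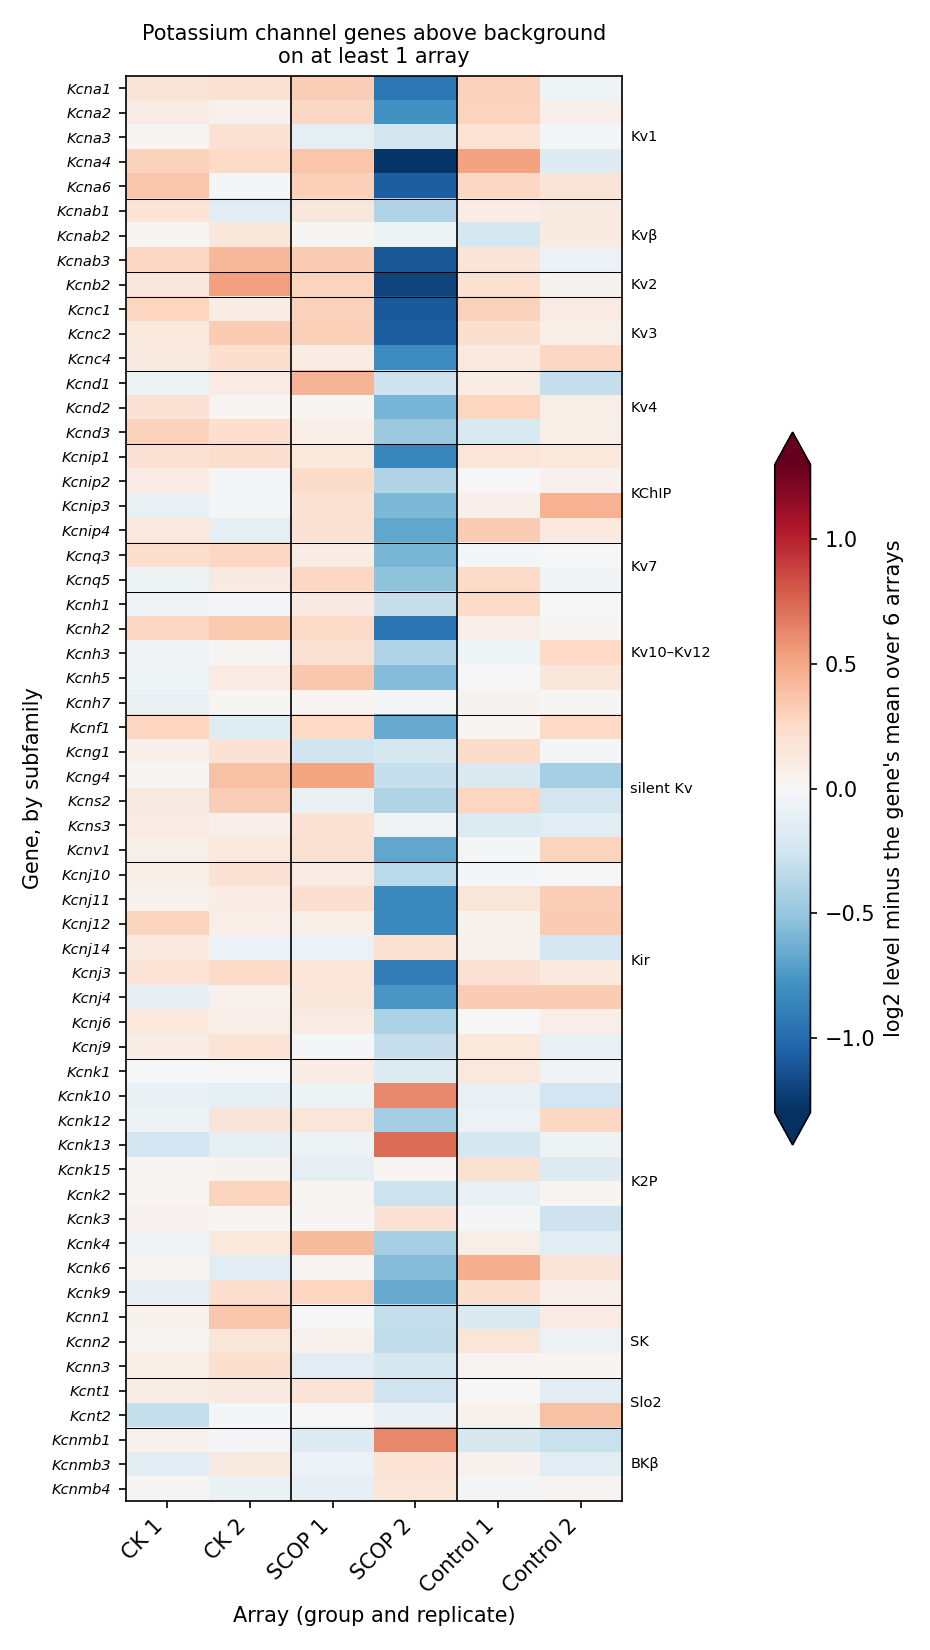
The 58 genes above background on at least 1 array (rows, by subfamily) on the 6 arrays (columns, by group and replicate). Colour is the log2 level minus the gene's mean over all 6 arrays, blue for lower and red for higher. The column of SCOP replicate 2 is the bluest, with 43 genes at their lowest. The darkest blue in it is that of the pores Kcna4, Kcnb2 and Kcnc1 and the Kvβ gene Kcnab3. Of these, Kcna4, Kcnb2 and Kcnab3 were below background on that array.

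Cell type markers also differed on SCOP replicate 2. The 6 neuron markers averaged 9.10 on it and all 6 were at their lowest there. The 5 measured excitatory neuron markers averaged 8.83 on it, where the other 5 arrays had 9.38 to 9.49, and the 6 interneuron markers averaged 7.41, where the others had 7.93 to 8.04. Of the interneuron markers Gad1, Gad2, Slc32a1 and Sst were lowest on it, while Pvalb (8.80, others 8.18 to 8.41) and Vip (6.87, others 6.15 to 6.50) were highest. The 4 striatal markers averaged 6.02 on it (others 6.77 to 7.13) and the 4 thalamus and midbrain markers 6.56 (others 7.39 to 7.51). Astrocyte markers split: Slc1a3 and Gja1 were lowest on it, Gfap, Aqp4 and S100b highest, and their mean, 7.77, lay within the range of the others, 7.62 to 7.84. The cerebellar markers averaged 8.40 (others 8.09 to 8.38). The 5 measured oligodendrocyte markers averaged 8.43 (others 8.52 to 8.78) and the 5 endothelial markers 6.42 (others 6.50 to 6.76), but both lists split. Mog, Mag and Cnp were lowest on it, while Mbp (11.50) and Mobp (9.39) were highest. Cldn5, Pecam1 and Flt1 were lowest, Slco1a4 (7.74, others 5.98 to 6.77) was highest, and Ly6c1 lay within the range of the others. The 6 choroid plexus markers averaged 5.49 (others 6.06 to 6.63), with 5 at their lowest, and the 2 measured markers of oligodendrocyte precursors 4.78 (others 5.24 to 5.52). The part of tissue make-up and of the raised background in the channel values was not tested. In bulk tissue, fewer cells of a type and less RNA per cell cannot be told apart.

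The pore subunits of Kv1 to Kv4 repolarise axons, cell bodies and dendrites. On SCOP replicate 2 all 5 Kv1 genes above background were at their lowest, with a median distance of -1.13 and a range of -1.53 to -0.29. All 3 Kv3 genes were at their lowest too, with a median of -1.28. Of the 3 Kv4 genes 2 were at their lowest, and the median was -0.58, less far down than KChIP (-0.76), Kir (-0.70) or Kv7 (-0.67). Among Kv1 genes, Kcna1 and Kcna2, the low-threshold channels of axons, are described first. Kcna1 read 8.0 and 8.03 on the CK arrays, 8.15 and 6.89 on the SCOP arrays and 8.13 and 7.77 on the Control arrays. Kcna2 had 7.98 and 7.93 in CK, 8.14 and 7.09 in SCOP and 8.16 and 7.94 in Control. In both genes 5 arrays lay together and 1 SCOP array lay below. Kcna4, the A-type member of Kv1, had the longest distance of all 58 genes. On SCOP replicate 2 it was below that array's background of 5.55. Its values were 6.02 and 5.97 in CK, 6.08 and 4.44 in SCOP and 6.23 and 5.54 in Control. Its log2 change was 0.74 in CK against SCOP (SE 0.48) and -0.63 in SCOP against Control, and without SCOP replicate 2 these became -0.083 and 0.19, with the sign turned. Kcna6 likewise gave 6.82 and 6.44 in CK, 6.77 and 5.38 in SCOP and 6.73 and 6.62 in Control. It too was below background on SCOP replicate 2, as were, among others, Kcnab3, Kcnb2, Kcnc2, Kcnf1, Kcnj4 and Kcnj11. Kcna3, also the channel of T cells and microglia, was the Kv1 gene with the smallest distance (-0.29), with 5.94 and 6.10 in CK, 5.79 and 5.67 in SCOP and 6.09 and 5.89 in Control.

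The Kvβ subunits, cytoplasmic partners of Kv1 that bind NADPH, split. Kcnab3 read 6.69 and 6.85 in CK, 6.75 and 5.31 in SCOP and 6.59 and 6.34 in Control. It had one of the larger changes in CK against SCOP, 0.75 (SE 0.41), and it too rested on SCOP replicate 2, since the change without that array was 0.025. Kcnab1 moved less, with 8.23 and 7.90 in CK, 8.20 and 7.66 in SCOP and 8.15 and 8.17 in Control. Kcnab2, with 9.52 and 9.66 in CK, 9.52 and 9.45 in SCOP and 9.29 and 9.63 in Control, stayed within the range of the other arrays on SCOP replicate 2.

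Kcnb2, the Kv2 pore measured here and a delayed rectifier of the soma, had the largest change of the members above background in CK against SCOP, 0.80 (SE 0.43, unadjusted p = 0.098, limma). Its values were 5.63 and 6.01 in CK, 5.77 and 4.28 in SCOP and 5.68 and 5.53 in Control. The change without SCOP replicate 2 was 0.055. The Kv3 pores, which let fast-spiking interneurons and other rapid neurons repolarise quickly, moved together. Kcnc1 read 9.13 and 8.94 in CK, 9.15 and 7.76 in SCOP and 9.15 and 8.96 in Control. Kcnc2 read 6.57 and 6.77 in CK, 6.75 and 5.37 in SCOP and 6.65 and 6.51 in Control, and Kcnc4 was 0.98 below the mean of the others on SCOP replicate 2. Leaving that array out, all 3 Kv3 genes spanned 0.17 to 0.26 over the 5 arrays of the 3 groups.

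**Figure D3:**
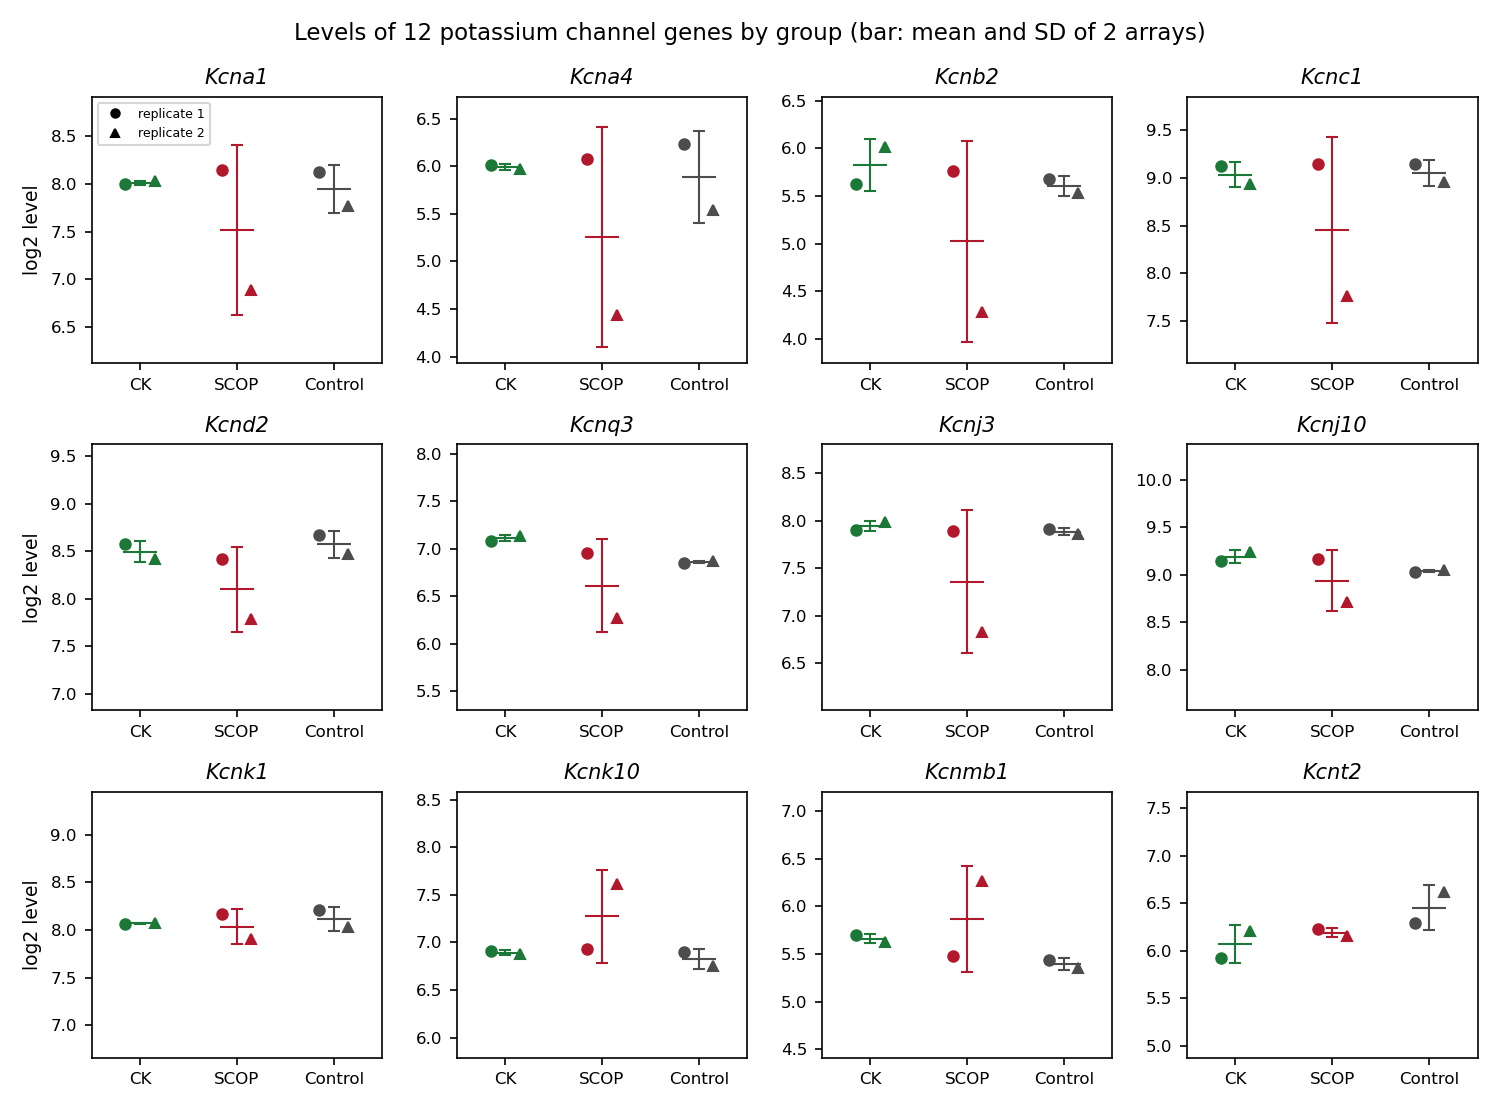
Levels (log2, vertical axes, all 2.8 units high) of 12 potassium channel genes in the CK, SCOP and Control groups. Circles are replicate 1, triangles replicate 2, and bars the mean and SD of 2 arrays. In Kcna1, Kcna4, Kcnb2, Kcnc1 and Kcnj3 the SCOP triangle lies at least 1 unit below the mean of the other arrays, in Kcnk10 and Kcnmb1 it lies 0.75 above it, and in Kcnk1 and Kcnt2 it lies 0.20 and 0.10 below it.

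The dendritic A-type current is carried by Kv4 pores with KChIP subunits, calcium sensors that bring Kv4 to the membrane. Kcnd2 read 8.57 and 8.42 in CK, 8.41 and 7.78 in SCOP and 8.67 and 8.47 in Control. Kcnd3 read 7.41 and 7.33 in CK, 7.21 and 6.64 in SCOP and 6.92 and 7.20 in Control. It was among the 5 highest changes in CK against Control, 0.31 (SE 0.25, unadjusted p = 0.24, limma), which is within the error. All 4 KChIP genes passed background on every array and all 4 were lowest on SCOP replicate 2. Kcnip1, known from interneurons, was the tightest of them elsewhere: 7.09 and 7.11 in CK, 7.04 and 6.05 in SCOP and 7.06 and 7.03 in Control, so 5 arrays spanned 0.082 and SCOP replicate 2 lay 1.01 below them. Kcnip3, which also acts as a transcriptional repressor, had 8.02 and 8.10 in CK, 8.31 and 7.53 in SCOP and 8.18 and 8.57 in Control. Kcnip4 had 8.64 and 8.39 in CK, 8.69 and 7.83 in SCOP and 8.83 and 8.63 in Control. These were among the 5 lowest changes in CK against Control, -0.32 (SE 0.29) for Kcnip3 and -0.22 (SE 0.30) for Kcnip4, and neither passed the test. Kcnip2 lay 0.47 below the others on SCOP replicate 2.

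The M-current genes measured were Kcnq3 and Kcnq5. Kcnq3 read 7.09 and 7.13 in CK, 6.96 and 6.27 in SCOP and 6.85 and 6.87 in Control. Both CK arrays were above the 4 arrays of the other groups. The change was 0.50 in CK against SCOP (SE 0.25, unadjusted p = 0.087, limma) and 0.25 in CK against Control (SE 0.25, unadjusted p = 0.35). With SCOP replicate 2 left out, the first of these was 0.15. The adjusted p of Kcnq3 in limma was 0.89 and 1.0, so neither difference passed the test. Its SE in limma pools the spread of all 6 arrays, SCOP replicate 2 included (SD 0.49 in SCOP, 0.033 in CK and 0.013 in Control). By the methods' t-test, on the CK and Control arrays alone, CK against Control had an unadjusted p = 0.0095 and an adjusted p = 0.97. By the same t-test Kcns3 (0.011), Kcnh2 (0.029), Kcne2 (0.039) and Kcnmb1 (0.039) also had an unadjusted p under 0.05, so Kcnq3 was not alone. Each SD in that test rests on 2 arrays, and its share over all genes is not given here. Kcnq5 read 6.50 and 6.68 in CK, 6.83 and 6.04 in SCOP and 6.81 and 6.52 in Control, with no such order.

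Among the ether-a-go-go channels (Kv10 to Kv12), Kcnh2, the ERG channel that also repolarises the heart, read 7.66 and 7.74 in CK, 7.65 and 6.45 in SCOP and 7.47 and 7.41 in Control. Its change in CK against SCOP was 0.65 (SE 0.35) and without SCOP replicate 2 it was 0.055. Kcnh7, another ERG channel, did not follow it: 6.76 and 6.86 in CK, 6.87 and 6.82 in SCOP and 6.89 and 6.86 in Control. The 6 values of Kcnh7 lay within 0.13 of each other. Kcnh1, Kcnh3 and Kcnh5 lay 0.36, 0.47 and 0.67 below the others on SCOP replicate 2. Of the modulatory subunits, which form no channel alone and change the gating of Kv2, Kcnv1 had 7.23 and 7.30 in CK, 7.36 and 6.48 in SCOP and 7.14 and 7.45 in Control. Kcnf1 was 0.79 below the others on SCOP replicate 2. Kcng1 was low on both SCOP arrays, at 5.51 and 5.64 in CK, 5.19 and 5.21 in SCOP and 5.69 and 5.43 in Control. Its change in CK against SCOP was 0.37 (SE 0.20, unadjusted p = 0.0999, limma) and 0.39 without SCOP replicate 2, so it did not rest on that array, and it did not pass the test. On SCOP replicate 2 Kcns3 was close to the other arrays, at -0.057. Kcng4 had the widest span over the other 5 arrays among the members above background, 0.95.

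G-protein gated Kir3 channels slow neurons on the action of GABA, opioid or muscarinic receptors. Kcnj3, the shared subunit, read 7.90 and 7.98 in CK, 7.89 and 6.83 in SCOP and 7.91 and 7.86 in Control, so 5 arrays spanned 0.13 and SCOP replicate 2 was 1.08 lower. Kcnj6 read 6.44 and 6.39 in CK, 6.41 and 5.89 in SCOP and 6.30 and 6.39 in Control. Kcnj9 read 6.46 and 6.54 in CK, 6.35 and 6.06 in SCOP and 6.50 and 6.27 in Control. The 3 neuronal subunits were thus lowest on the same array, 1.08, 0.50 and 0.36 below the mean of the others. Kcnj5, the subunit typical of heart, was below background on all arrays.

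Kcnj10, the main Kir channel of astrocytes, which clears potassium from around active neurons, read 9.14 and 9.24 in CK, 9.16 and 8.71 in SCOP and 9.03 and 9.05 in Control. It was 0.42 lower on SCOP replicate 2, on which the astrocyte transporter Slc1a3 (7.25, others 7.76 to 8.11) and the gap junction gene Gja1 (8.14, others 8.38 to 8.71) were also lowest and Aqp4 (8.65, others 8.10 to 8.36) and S100b (8.36, others 7.29 to 7.62) highest. Kcnj16, with which it can form mixed channels, was below background. Kcnj11, the pore of the ATP-sensitive channel that links metabolism to excitability, read 6.10 and 6.14 in CK, 6.27 and 5.21 in SCOP and 6.21 and 6.37 in Control. The vascular ATP-sensitive pore Kcnj8 was below background on all arrays. Of the strong inward rectifiers, Kcnj12 was 1.0 lower on SCOP replicate 2, and Kcnj4 read 5.35 and 5.52 in CK, 5.61 and 4.70 in SCOP and 5.79 and 5.79 in Control. Both CK arrays of Kcnj4 were below both Control arrays, by a mean of -0.35 (SE 0.30, unadjusted p = 0.27, limma, all 6 arrays). The same gene had the lowest change in SCOP against Control, -0.63 (SE 0.30), which became -0.18 without SCOP replicate 2. Kcnj14 was the Kir gene above background on at least 1 array that was highest on SCOP replicate 2, by 0.24. SCOP replicate 2 was also the only array where Kcnj14 was below background, at 5.53 beside a background of 5.55.

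**Figure D4:**
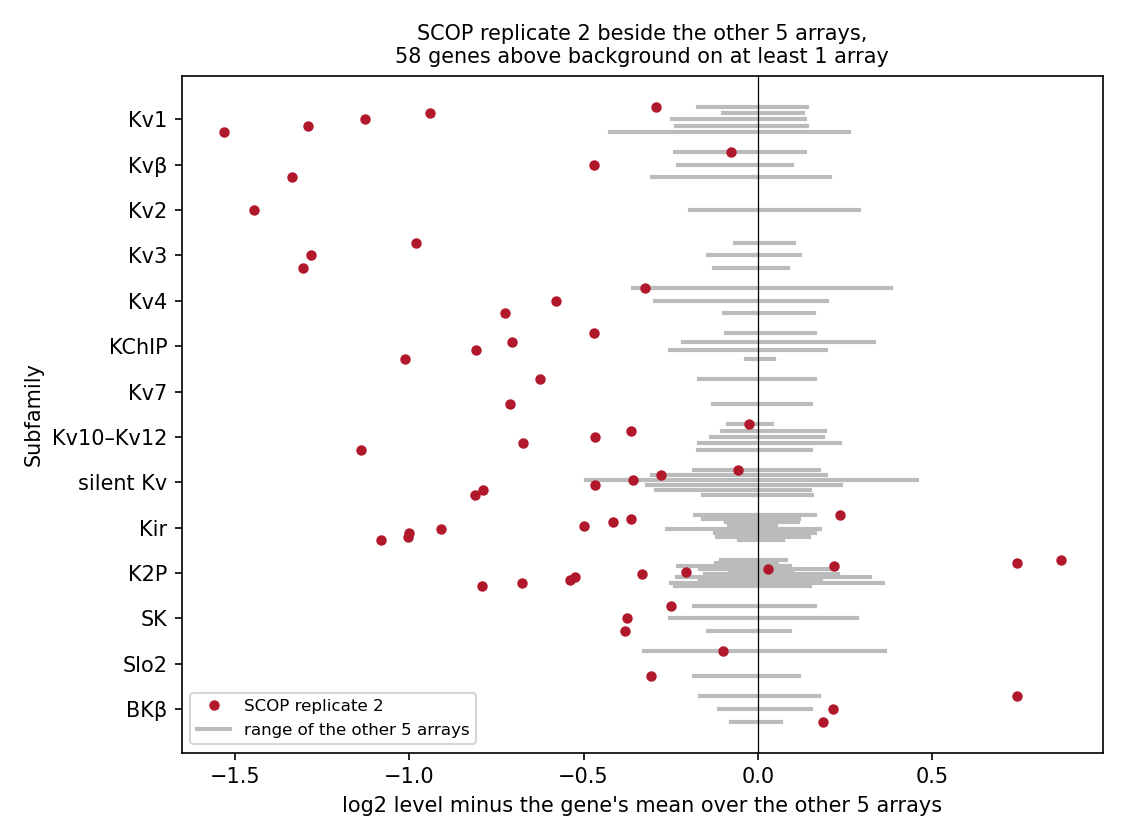
Log2 level on SCOP replicate 2 minus the mean of the other 5 arrays (horizontal axis, red points) for the 58 genes above background on at least 1 array, by subfamily (vertical axis). Grey lines are the range of the other 5 arrays for the same gene. The Kv1 points reach -1.53, the K2P points lie on both sides of 0, and the 3 BKβ points lie above it.

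The K2P leak channels did not share one direction on that array. Of the 10 such genes above background, it was lowest for 6 and highest for 3, with a median distance of -0.27 and a range of -0.79 to 0.87. Over all genes above background it was lowest for 51.3% and highest for 24.8%, with a median distance of -0.20. The K2P split was thus near that of the series and not particular to these channels. Kcnk1 read 8.07 and 8.07 in CK, 8.17 and 7.90 in SCOP and 8.21 and 8.03 in Control. Kcnk2, a TREK channel opened by stretch and lipids, read 6.26 and 6.52 in CK, 6.27 and 5.96 in SCOP and 6.14 and 6.27 in Control. On SCOP replicate 2, Kcnk1 was 0.20 and Kcnk2 0.33 below the others. A relative, Kcnk10, also a TREK channel, went the other way: 6.91 and 6.88 in CK, 6.93 and 7.62 in SCOP and 6.90 and 6.75 in Control. The 5 other arrays of Kcnk10 spanned 0.18 and SCOP replicate 2 lay 0.75 above their mean. The acid-sensitive TASK channels differed as well, with Kcnk9 at 6.43 and 6.75 in CK, 6.82 and 5.88 in SCOP and 6.74 and 6.60 in Control. Kcnk3 had 5.56 and 5.52 in CK, 5.52 and 5.68 in SCOP and 5.49 and 5.24 in Control.

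Kcnk13, the THIK channel that sets the resting potential of microglia, had the lowest change in CK against SCOP among members above background, -0.52 (SE 0.28, unadjusted p = 0.099, limma). It read 5.05 and 5.18 in CK, 5.24 and 6.03 in SCOP and 5.08 and 5.23 in Control. Without SCOP replicate 2 the change was -0.12. The 6 microglia markers (Cx3cr1, P2ry12, Tmem119, Csf1r, Aif1 and C1qa, none below background on every array) averaged 6.04 on SCOP replicate 2 and 5.94 to 6.49 on the others, but went both ways: P2ry12 (8.07) and Aif1 (5.69) were highest on it, and Cx3cr1 (4.80), Csf1r (6.28) and C1qa (5.29) lowest. Their part in the Kcnk13 values was not tested. Kcnk6, a TWIK channel, read 4.75 and 4.59 in CK, 4.76 and 4.16 in SCOP and 5.20 and 4.90 in Control. All 4 arrays of the SCOP-treated groups lay below both Control arrays, by -0.58 in SCOP (SE 0.25, unadjusted p = 0.0504, limma) and by -0.38 in CK (SE 0.25, unadjusted p = 0.18). Leaving out SCOP replicate 2, the first of these was -0.28. Only 1 of its 6 values was above background, and both comparisons share the Control arrays. Groups without overlap were common among the members, so this order does not set Kcnk6 apart.

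BKβ subunits tune the large-conductance calcium-activated channel. Kcnmb4, the neuronal form, read 7.0 and 6.89 in CK, 6.87 and 7.14 in SCOP and 6.97 and 7.02 in Control. Kcnmb1, the form of smooth muscle, read 5.69 and 5.63 in CK, 5.48 and 6.26 in SCOP and 5.44 and 5.35 in Control. Its change was 0.48 in SCOP against Control (SE 0.27, unadjusted p = 0.12, limma) and 0.27 in CK against Control (SE 0.27). The first of these was 0.083 when SCOP replicate 2 was left out. The 4 pericyte and smooth muscle markers (Pdgfrb, Rgs5, Acta2 and Vtn) averaged 6.14 on SCOP replicate 2, where Kcnmb1 was highest, and 6.96 to 7.29 on the other arrays. Pdgfrb, Acta2 and Vtn were lowest there, Acta2 at 4.86 (others 6.32 to 6.97), and Rgs5 was highest, at 7.16 (others 6.68 to 7.15). All 3 BKβ genes above background, Kcnmb1, Kcnmb3 and Kcnmb4, were highest on SCOP replicate 2. Kcnmb3 passed background on 1 of the 6 arrays, which was not this one.

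Small-conductance (SK) channels make the afterhyperpolarisation that follows a burst. Kcnn1 read 5.94 and 6.24 in CK, 5.90 and 5.59 in SCOP and 5.71 and 6.01 in Control. Kcnn2 read 6.96 and 7.08 in CK, 6.98 and 6.61 in SCOP and 7.08 and 6.85 in Control. Kcnn3, strong in dopamine neurons, read 5.83 and 5.96 in CK, 5.61 and 5.54 in SCOP and 5.79 and 5.78 in Control, and both its SCOP arrays were below the other 4. Its change was 0.32 in CK against SCOP (SE 0.19, unadjusted p = 0.13, limma), and 0.29 without SCOP replicate 2, so it did not rest on that array, but it did not pass the test. Of the sodium-activated channels, Kcnt1 read 6.77 and 6.78 in CK, 6.84 and 6.41 in SCOP and 6.67 and 6.53 in Control. Kcnt2 read 5.93 and 6.21 in CK, 6.23 and 6.16 in SCOP and 6.29 and 6.62 in Control. Its change in CK against Control, -0.38 (SE 0.22, unadjusted p = 0.11, limma), was the lowest of the members above background, and both CK arrays were below both Control arrays.

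Genes without a Kcn name whose proteins assemble with or steer these channels were described in the same way. Of 28 listed partners, 26 were measured and 21 of these passed background, among them Dpp6 and Dpp10 of Kv4, Lgi1, Adam22 and Cntnap2 of axonal Kv1, the sulfonylurea receptor Abcc8 and the HCN pacemakers. In limma 0 of 26 had an unadjusted p under 0.05 in any of the 3 comparisons, beside 2.57%, 3.31% and 1.44% of all genes in both directions together. Their median change was 0.25 in CK against SCOP, -0.15 in SCOP against Control and 0.037 in CK against Control. Without SCOP replicate 2 the first and second of these were -0.074 and 0.10. In that setting 0 partners passed in CK against SCOP and 1 in SCOP against Control, the pacemaker gene Hcn4 (0.57, unadjusted p = 0.029, adjusted p = 0.98, limma). On SCOP replicate 2 the 26 partners averaged 5.93, where the other 5 arrays had 6.42 to 6.56. On it 19 of the 26 (73.1%) were at their lowest, beside 33.2% of all genes and 51.3% of all genes above background. Since 21 of the partners were above background, the second of these shares is the nearer match. Dpp10 (7.99, others 7.83 to 7.97) and Vapb (7.47, others 7.34 to 7.44) were at their highest there.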

How the data were processed

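Brain RNA of 6 ICR mouse samples, 2 each of the CK, SCOP and Control groups, was measured on Affymetrix arrays with a single biotin label. The table deposited by the authors holds a log2 value per probe set. The submitters' processing notes name RMA, with no version there. RMA subtracts background, normalizes between arrays and summarises probes, so total RNA cannot be compared. The values were used as deposited. The table has 29129 probe sets, 22206 for transcripts and 5222 negative controls. The platform's annotation, which can be old, gives 1 symbol to 19572, several to 0 and none to 2634. The highest-mean probe set was kept per gene, leaving 19505 genes. All 89 members matched the mouse RefSeq table by Entrez identifier. Other Kcn genes were not analysed here, and no sequences are shown.

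All genes and all 6 arrays entered one fit in limma 3.58.1 under R 4.3.3 (lmFit, contrasts.fit and eBayes, with 3 residual and 5.08 prior degrees of freedom), and p-values were adjusted over all genes by Benjamini-Hochberg. No filter on dim genes was used. P-values measure the spread between these arrays only, and the number of arrays limits precision. The fit was tested on simulated data. Members, lists and rules were chosen with earlier results of these data known. Genes named with a change were those with an unadjusted p under 0.05 and the 5 highest and 5 lowest changes among members above background on at least 1 array. Genes named with a level were the highest-mean member of each subfamily and a set by role, and others by subfamily after their values were seen. Alternatives were quantile normalization, median centring, dim genes left out, averaged probe sets, eBayes options, a replicate block, fits of 4 arrays alone, fits without each array and the methods' t-test (Student's, p under 0.05).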

Additional observations from a re-analysis of the deposited data

How the results depend on the processing

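Counts of members at an adjusted p under 0.05 (limma) were 0 in all 3 comparisons under every alternative that kept all arrays of the comparison. With each array left out in turn they ranged over 0 to 23 in CK against SCOP and 0 to 24 in SCOP against Control, the upper ends both being without SCOP replicate 1. With an unadjusted p under 0.05, CK against SCOP had 1 member, 0 with dim genes left out, 3 by the methods' t-test and 0 to 43 with an array left out. SCOP against Control had 0, 1 with quantile normalization, 2 with medians centred, 3 by the methods' t-test and 0 to 38 with an array left out. CK against Control had 1, 0 with dim genes left out, 3 with only the 4 arrays compared, 5 by the methods' t-test and 0 to 3 with an array left out. In the comparisons that use SCOP, the upper ends of these unadjusted counts were also without SCOP replicate 1. That fit has SCOP replicate 2 as its only SCOP array, and many genes of the whole series passed in it too. The member counts alone therefore do not set the potassium channel genes apart from the series. The unadjusted counts over all 19505 genes were 502 in CK against SCOP and 584 there by the methods' t-test. In SCOP against Control they were 646, 655 with quantile normalization, 647 with medians centred and 552 by the methods' t-test. In CK against Control they were 280, and 1011 with only the 4 arrays compared. With dim genes left out, 144 of the genes kept passed in CK against SCOP and 73 in CK against Control. With an array left out, the median change ranged over 0.015 to 0.35 in CK against SCOP, -0.27 to 0.062 in SCOP against Control and -0.0043 to 0.071 in CK against Control, where centring gave -0.040.

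The replicate block gave 1 member at an unadjusted p under 0.05 in SCOP against Control. Equal replicate numbers showed no sign of pairs (correlations of deviations -0.028 to 0.024). With 2 arrays a group, and SCOP replicate 2 far from SCOP replicate 1, this check cannot exclude pairs. The block changed no other count by more than 1.5 times. Averaged probe sets, dim genes left out, eBayes options and the replicate block cannot alter a member's log2 change, nor therefore its sign. Nor can the methods' t-test, fits of the compared arrays alone, or leaving out an array outside the comparison. Only quantile normalization, median centring and leaving out an array of the comparison could turn a sign. Of 32 named changes, 24 kept their sign under every alternative and 8 turned with an array left out, 7 of them without SCOP replicate 2. In CK against SCOP these ranged over -0.083 to 1.56 for Kcna4, -0.074 to 1.31 for Kcnc2, -0.60 to 0.18 for Kcnmb1, -0.20 to 0.064 for Kcnmb3 and -0.26 to 0.018 for Kcnt2. In SCOP against Control they ranged over -1.45 to 0.19 for Kcna4, -1.29 to 0.091 for Kcnc1 and -1.29 to 0.094 for Kcna6. Kcnmb3 also turned without CK replicate 1, as did Kcnt2. Signal over background limits the 31 genes that passed background on no array.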
